A study of Homo sapiens with 10 samples.

Results

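The insulin-like growth factor (IGF) axis was described through 10 genes: the ligands IGF1 and IGF2, the receptors IGF1R, IGF2R and INSR, the adaptors IRS1 and IRS2, and the binding proteins IGFBP2, IGFBP3 and IGFBP5. Members were taken by gene symbol from the platform annotation of the arrays, and the 10 genes are part of 17687 named genes. Each member had 1 probe set among the 21448 gene probe sets tested. RNA of the human neuroblastoma lines SK-N-FI and SK-N-AS was measured on 10 Affymetrix whole-transcript arrays. The SK-N-FI cells came from a commercial repository and the SK-N-AS cells were a gift from a children's cancer group, and the labels call the SK-N-AS cells a primary cell line. Both lines were grown in serum-containing IMDM medium. Treatment was BG-P1600-TAT at 30 µM for 48 h, with PBS for the same time as the control. BG-P1600-TAT is a PEGylated agent made, by the study's title, to target the norepinephrine transporter together with thyrointegrin αvβ3. SK-N-FI had 2 control arrays and 2 treated arrays, numbered 1 and 2 in each arm. In SK-N-AS, arrays 25, 26 and 27 were the 3 controls, and arrays 28, 29 and 30 held the 3 treated samples. The study's design text counts more SK-N-FI replicates, and 2 per arm were analysed here. The SK-N-AS titles shorten the compound's name to BG-P-TAT, which was read as BG-P1600-TAT.

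IGF1 and IGF2 are secreted peptides that activate the receptor tyrosine kinase IGF1R, and IGF2 also activates a splice form of the insulin receptor INSR. IRS1 and IRS2 dock on the active receptors and pass the signal to PI3K and AKT, which restrains the FOXO transcription factors. IGF2R binds IGF2 and carries it to the lysosome without a kinase signal, and the IGF binding proteins hold the ligands outside the cell and set how much of them reaches a receptor. IGF2 and IGF1R are known as an autocrine growth loop in neuroblastoma.

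Values are log2 signals. The background threshold of an array was the 95th percentile of its 612 negative control probe sets, and ranged from 7.44 to 8.26 over the SK-N-FI arrays and from 6.75 to 7.23 over the SK-N-AS arrays. The array medians of all gene probe sets ranged from 6.61 to 6.62 for SK-N-FI and from 5.75 to 5.81 for SK-N-AS. The median difference between the untreated lines (SK-N-AS minus SK-N-FI) was -0.61 over all probe sets, so every level set across the lines carries that difference, and line and normalization cannot be told apart on that scale. Of 8 noradrenergic markers, 7 were above background on every SK-N-FI array (not TH), and 4 were so in SK-N-AS, where PHOX2A, DBH, SLC6A2 and TH were on no array. Of 9 mesenchymal markers, 3 to 4 were above background on every array of a SK-N-FI group and 6 in each SK-N-AS group. Markers of endothelial, epithelial and Schwann cells were above background on no array, and of 6 leukocyte markers 1, PTPRC, was above it on every treated SK-N-AS array and 1 was on some SK-N-AS control arrays. The part of these line markers in the differences given below was not tested. Whether the 3 SK-N-AS samples of an arm were separate cultures is not given in the labels. The p-values therefore measure array-to-array spread that may be technical, and the small number of arrays limits precision.

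In each line 6 of the 10 genes were above background on every array, and 5 of them were shared. IGF2, IGF1R, IGF2R, IRS2 and IGFBP2 were above background on all 10 arrays, as were 27.2% of all probe sets. IGFBP5 was above background on all 4 SK-N-FI arrays and on none of the 6 SK-N-AS arrays, and IGFBP3 was above background on all 6 SK-N-AS arrays and on none of the 4 SK-N-FI arrays. IGF1, INSR and IRS1 were above background on no array, as were 50.2% of all probe sets. For those 3 genes the signal gives an upper bound only. With the 99th percentile of the negative controls, 0 members were above it on every SK-N-FI array and 2, IGFBP2 and IGFBP3, on every SK-N-AS array. At that percentile IGF2, IGF1R, IGF2R and IRS2 each exceeded it on 3 of 4 SK-N-FI arrays and on 4 of 6 SK-N-AS arrays. IGFBP2 and IGFBP5 each exceeded it on only 1 of 4 SK-N-FI arrays, so their presence in SK-N-FI depends on the percentile.

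**Figure D1:**
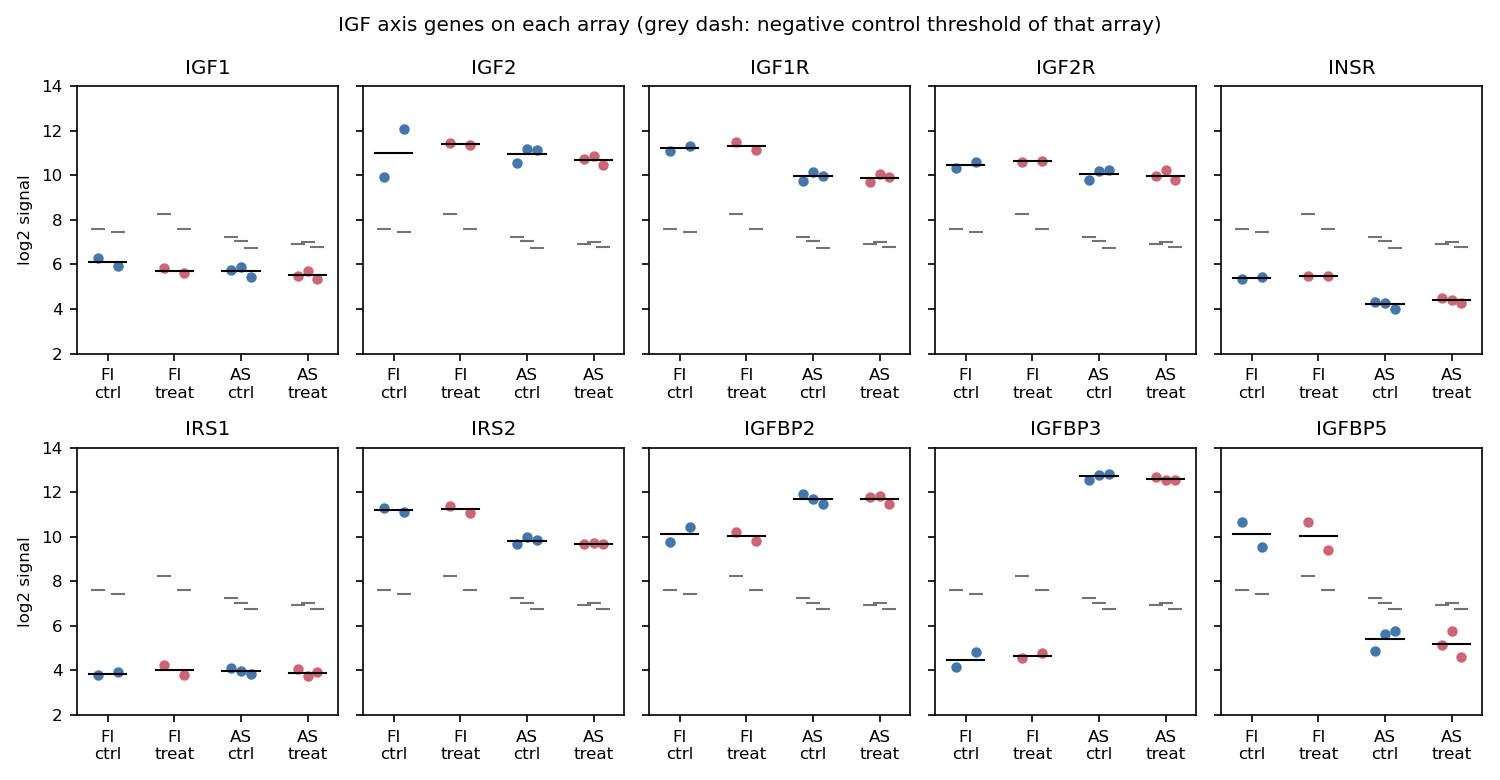
Log2 signal of the 10 genes on each array (points), by line (FI is SK-N-FI, AS is SK-N-AS) and arm, with the mean of each group as a black line and the negative control threshold of each array as a grey dash. IGFBP3 lies under the threshold on 4 SK-N-FI arrays and above it on 6 SK-N-AS arrays, IGFBP5 does the reverse, and IGF2 spans 9.94 to 12.06 in the SK-N-FI controls.

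Of the ligands, IGF2 was above background on all arrays and IGF1 on none. IGF2 read 9.94 and 12.06 on SK-N-FI control arrays 1 and 2, and 11.44 and 11.34 on the treated arrays. It read 10.54, 11.19 and 11.15 on the SK-N-AS control arrays and 10.73, 10.87 and 10.45 on the treated ones. The lowest and the highest IGF2 signals of the whole set were thus the SK-N-FI control arrays, with all other arrays between them. Their range of 2.12 was larger than that of 99.98% of all probe sets in the same group, while the treated SK-N-FI arrays differed by 0.10. INS-IGF2, a readthrough gene that shares exons with IGF2, cannot be told apart from it here, since probe positions were not used. IGF1 lay between 5.36 and 6.30 on the 10 arrays, under the threshold on each.

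The type 1 receptor IGF1R, which carries the growth signal of both ligands, read 11.09 and 11.31 on the SK-N-FI control arrays and 11.49 and 11.14 on the treated ones. In SK-N-AS it read 9.74, 10.12 and 9.97 on control arrays and 9.70, 10.06 and 9.91 on treated arrays. Every SK-N-FI array was higher than every SK-N-AS array on the deposited scale, and within each line control and treated arrays overlapped. IGF2R, the clearance receptor of IGF2, read 10.33 and 10.61 in SK-N-FI controls, 10.61 and 10.62 in treated SK-N-FI cells, 9.79, 10.17 and 10.23 in SK-N-AS controls and 9.94, 10.21 and 9.78 in treated SK-N-AS cells. Its lowest SK-N-FI array exceeded its highest SK-N-AS array by a small margin. INSR, the insulin receptor, lay between 4.01 and 5.50 and under the threshold on all arrays.

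Of the adaptors, IRS2 was above background in both lines and IRS1 in neither. IRS2 read 11.28 and 11.11 in SK-N-FI controls and 11.38 and 11.06 after treatment. It read 9.66, 9.96 and 9.84 in SK-N-AS controls and 9.66, 9.71 and 9.68 after treatment. The lines did not overlap on the deposited scale, and the arms within each line did. The 3 treated SK-N-AS arrays differed by 0.06, a range smaller than that of all but 1.02% of probe sets. IRS1 lay between 3.74 and 4.23 on all arrays.

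The 3 binding proteins differed between the lines in signal. IGFBP3, the main carrier of IGFs in blood, read 12.56, 12.76 and 12.81 in SK-N-AS controls and 12.66, 12.54 and 12.52 after treatment, against 4.16 and 4.81 in SK-N-FI controls and 4.54 and 4.78 after treatment. IGFBP5, which also binds extracellular matrix, read 10.66 and 9.55 in SK-N-FI controls and 10.66 and 9.39 after treatment, against 4.86, 5.64 and 5.78 in SK-N-AS controls and 5.16, 5.77 and 4.62 after treatment. For each of these genes the lines were far apart and opposite in order, and control and treated arrays of a line overlapped. IGFBP5 read about 1 log2 unit higher on the arrays numbered 1 than on those numbered 2 in both SK-N-FI arms, with ranges of 1.11 and 1.27. IGFBP2, which is abundant in nervous tissue and in blood, was measured in both lines. It read 9.76 and 10.44 in SK-N-FI controls and 10.23 and 9.79 after treatment, and 11.93, 11.68 and 11.46 in SK-N-AS controls and 11.79, 11.81 and 11.48 after treatment. Every SK-N-AS array was higher than every SK-N-FI array for IGFBP2.

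The promoter windows of IGFBP3 and IGFBP5 are shown because these genes were measured in opposite lines. The sequences come from RefSeq, build GRCh38.p14, and run 5′ to 3′ on the minus strand from 250 bases before the gene's start to 50 bases after it. The IGFBP3 window is chr7:45921223-45921522 and the IGFBP5 window is chr2:216695500-216695799. Capitals mark matches, on either strand, to the TATA box letters TATANA, the GC box GGGCGG and the AP-2 motif GCCNNNGGC.
IGFBP3: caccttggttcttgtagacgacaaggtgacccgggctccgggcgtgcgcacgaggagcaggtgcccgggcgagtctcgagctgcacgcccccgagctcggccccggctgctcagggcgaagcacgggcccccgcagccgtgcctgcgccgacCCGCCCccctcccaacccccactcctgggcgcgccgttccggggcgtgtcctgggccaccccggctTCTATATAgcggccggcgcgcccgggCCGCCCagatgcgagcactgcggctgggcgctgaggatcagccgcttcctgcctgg
IGFBP5: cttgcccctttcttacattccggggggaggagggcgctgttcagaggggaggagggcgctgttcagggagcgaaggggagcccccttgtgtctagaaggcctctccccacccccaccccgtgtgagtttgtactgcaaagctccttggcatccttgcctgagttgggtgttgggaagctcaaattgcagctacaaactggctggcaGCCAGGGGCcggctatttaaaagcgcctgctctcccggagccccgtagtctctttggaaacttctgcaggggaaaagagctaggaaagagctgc

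None of the marked letter strings matched in both windows. The string TATANA does not match variants such as tatttaa, which the IGFBP5 window holds. A missing match is therefore not the absence of a TATA box. The IGFBP3 window was 74.7% G and C and the IGFBP5 window 59%, against a median of 58.7% over 35116 windows of that length. Counted from base 1 at the 5′ end, the IGFBP3 window held TATANA at bases 221 to 226 and, overlapping it on the other strand, at bases 219 to 224. It held GGGCGG on the other strand at bases 153 to 158 and 245 to 250. The IGFBP5 window held GCCNNNGGC at bases 207 to 215. TATANA occurred in 19% of all windows, GGGCGG in 45% and GCCNNNGGC in 23.2%. TGANTCA (AP-1, in 7.71% of windows) had no match in either window, and CANNTG (E-box, in 68.7%) matched at bases 58 to 63 and 250 to 255 of IGFBP3, the latter overlapping a GGGCGG match by 1 base, and nowhere in the IGFBP5 window. A match is a description of letters, not a site. IGFBP2 and IGFBP5 are neighbours in the same RefSeq annotation, with 0 genes between them and on opposite strands. IGFBP2 was higher in SK-N-AS and IGFBP5 in SK-N-FI.

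The first comparison asked whether the IGF axis responded to BG-P1600-TAT within each line. No member passed the test in either line. In SK-N-FI, limma called 0 of 10 members, and 0 had an unadjusted p under 0.05; over all probe sets 0% were called and 2.85% had such a p. In SK-N-AS, limma also called 0 of 10, with 0 at an unadjusted p under 0.05, against 0% and 2.6% of all probe sets. In SK-N-FI the arms were fully separated for 3 of 10 members (IGF1, IGF2R and INSR), as they were for 27.8% of all probe sets. None of the 10 had non-overlapping arms in SK-N-AS, against 7.31% of all probe sets. The median difference of the members (treated minus control) was 0.11 for SK-N-FI, and -0.11 for SK-N-AS, beside -0.0055 and -0.0047 over all probe sets. The treated mean was the higher one for 7 of 10 members in SK-N-FI and for 2 of 10 in SK-N-AS, against 49% and 49.2% of all probe sets.

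The intervals show which changes the arrays could have missed. The 95% interval of the log2 difference lay within a 2-fold change in either direction for 8 of 10 members in SK-N-FI, against 84.9% of all probe sets. It did so for 9 of 10 in SK-N-AS, against 82.1%. IGF1R differed by 0.11 (-0.43 to 0.66) in SK-N-FI and by -0.05 (-0.53 to 0.42) in SK-N-AS. IRS2 differed by 0.03 (-0.50 to 0.56) and -0.14 (-0.57 to 0.30). For the receptor and the adaptor measured in both lines, a doubling or halving of signal therefore lay outside the intervals. IGFBP2 differed by -0.09 (-0.78 to 0.59) and, for SK-N-AS, by 0.01 (-0.48 to 0.50). IGF2R differed by 0.15 (-0.36 to 0.66) and -0.09 (-0.59 to 0.41). IGFBP3, in the line where it was above background, differed by -0.14 (-0.57 to 0.30) after treatment of SK-N-AS. All of these intervals held 0.

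IGF2 and IGFBP5 were the members the data bounded least. In SK-N-FI, IGF2 differed by 0.39 (-0.99 to 1.78), and the estimate was -0.67 without control array 1 and 1.45 without control array 2. The direction of the IGF2 difference in SK-N-FI thus rested on a single control array. IGFBP5 differed by -0.08 (-1.22 to 1.06) in SK-N-FI, with values from -0.72 to 0.55 when single arrays were left out. In SK-N-AS, IGF2 differed by -0.28 (-0.83 to 0.28), with leave-out values from -0.49 to -0.16. The 3 members under background, IGF1, INSR and IRS1, had differences of -0.39, 0.12 and 0.15 (SK-N-FI) and of -0.18, 0.18 and -0.07 (SK-N-AS), which describe signal near background.

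**Figure D2:**
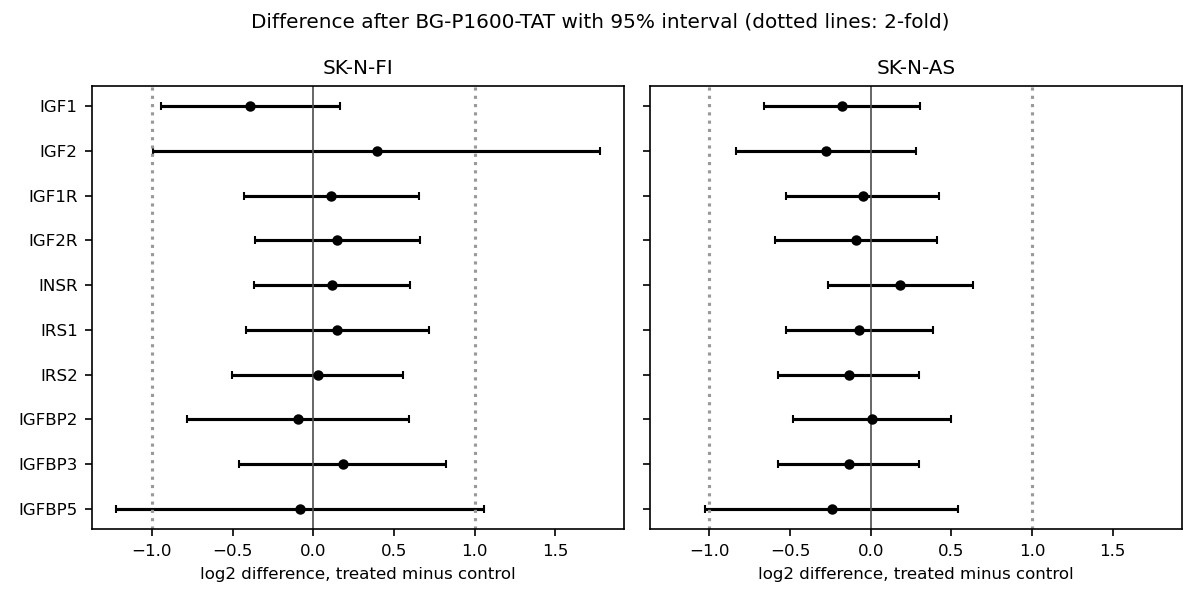
Log2 difference (treated minus control) of each gene in SK-N-FI (n = 2 per arm) and SK-N-AS (n = 3 per arm), with the limma 95% interval as a bar and a 2-fold change as dotted lines. All intervals cross 0, and those of IGF2 and IGFBP5 in SK-N-FI and of IGFBP5 in SK-N-AS reach past a 2-fold change.

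The difference of the treatment effect between the lines was tested in a fit of all 10 arrays. Limma called 0 of 10 members, with 0 at an unadjusted p under 0.05, and 0% of all probe sets. IGF2 had the largest estimate, -0.67 (SK-N-AS effect minus SK-N-FI effect, 95% interval -2.11 to 0.76), and IGFBP3 followed with -0.32 (-1.05 to 0.41). IGFBP3 was under background in SK-N-FI and IGFBP5 in SK-N-AS, so the estimates of both include signal near background. For 7 of 10 members the interval lay within a 2-fold difference, a count for which no share over all probe sets was taken. IGF2, IGFBP3 and IGFBP5 were the exceptions. A difference in response of these genes between the lines was not detectable with these arrays.

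The comparison of the untreated lines asked how the axis was set before treatment. On the deposited values, limma called 6 of 10 members, against 59.3% of all probe sets, so the share was near the background. After quantile normalization it also called 6 of 10, against 46.7% of all probe sets, with IGF2 and IGF2R in place of IGF1R and IRS2. On the deposited values the calls were IGFBP2 and IGFBP3, higher in SK-N-AS, and IGFBP5, IGF1R, IRS2 and INSR, higher in SK-N-FI, with INSR under background on all arrays. The arrays of the lines did not overlap for 8 of 10 members, against 73.1% of all probe sets. Of all calls, 19.4% were higher in SK-N-AS on the deposited values, 51.1% after quantile normalization over the 10 arrays and 55.6% after centring each array on its median. The deposited scale therefore put most called genes higher in SK-N-FI.

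IGFBP2, IGFBP3 and IGFBP5 were called in the same direction under each of the 3 scalings, which is 3 of 10 members against 30.3% of all probe sets. The log2 difference of IGFBP3 between the untreated lines was 8.23 (limma adjusted p = 1.4e-10), with the SK-N-FI signal under background. As a bound, which was not itself tested, IGFBP3 was at least 36.5-fold higher in untreated SK-N-AS, and at least 78.8-fold after quantile normalization. These bounds set the bright group's mean against the negative control thresholds of the other line, or the gene's own signal where that was higher. The log2 difference of IGFBP5 was -4.68 (limma adjusted p = 2.8e-06), with the SK-N-AS signal under background. As a bound, IGFBP5 was at least 8.58-fold higher in untreated SK-N-FI, and at least 2.81-fold after quantile normalization. IGFBP2, measured in both lines, was higher in untreated SK-N-AS by a log2 difference of 1.58 (95% interval 1.00 to 2.16, limma adjusted p = 0.00024), and by 3.09 after quantile normalization. Leaving out each array in turn moved the log2 difference of IGFBP2 between 1.24 and 1.92.

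IGF1R and IRS2 were higher in SK-N-FI on the deposited values, by 2.39-fold and 2.59-fold (log2 differences -1.26 and -1.37, limma adjusted p = 0.00042 and 0.00012). After centring on the median these differences were -0.42 (not called, limma adjusted p = 0.13) and -0.53 (called), and after quantile normalization they turned to 0.37 and 0.27 and were not called. Within their own arrays, IGF1R exceeded 84.5% of probe sets in SK-N-FI controls and 87.0% in SK-N-AS controls, and IRS2 exceeded 84.5% and 86.4%. The receptor and its adaptor thus held nearly the same rank in both lines, and the direction of their line difference depended on the scaling. IGFBP3 by contrast exceeded 27.3% of probe sets in SK-N-FI controls and 96.4% in SK-N-AS controls, and IGFBP5 76.4% and 44.8%. INSR differed by -1.17 on the deposited values (limma adjusted p = 0.00034), by -0.88 after quantile normalization and by -0.33, not called, after centring, and no fold is given since it was under background in both lines.

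IGF2 was not called between the untreated lines on the deposited values (log2 difference -0.04, 95% interval -1.05 to 0.98, limma adjusted p = 0.95), and this value rested on the 2 discordant SK-N-FI control arrays. Without control array 1 it was -1.10 (limma adjusted p = 0.017), and without control array 2 it was 1.02 (limma adjusted p = 0.024), so each array alone gave a call and the calls were opposite. After quantile normalization IGF2 was 2.79-fold higher in SK-N-AS (limma adjusted p = 0.025). IGF2R differed by -0.40 (-0.91 to 0.10) on the deposited values and by 1.25 after quantile normalization, where limma called it higher in SK-N-AS (adjusted p = 0.00078). IGF1 and IRS1 were under background in both lines, so their differences describe signal near background. IRS1 differed by 0.12 on the deposited values and 0.21 after quantile normalization, not called, and by 0.96 after median centring, where limma called it (adjusted p = 0.0036). IGF1 differed by -0.42, 0.27 and 0.43 on the same 3 scales and was called on none.

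The treated lines, measured on the other 5 arrays, gave the same picture for the binding proteins. On the deposited values limma called 7 of 10 members against 59% of all probe sets, the 6 of the untreated lines and IGF2R, and the lines were separated for 8 of 10 against 72.2%. After quantile normalization it called 5 of 10 against 45.5% of all probe sets, and IGF1R (0.17) and IRS2 (0.086) were not among them. IRS1 and IGF1, both under background, were called between the treated lines after median centring only (0.73 and 0.63, limma adjusted p = 0.017 and 0.033). Under each of the 3 scalings the calls in 1 direction were again IGFBP2 and IGFBP3 (higher in SK-N-AS, as were 11.1% of all probe sets) and IGFBP5 (higher in SK-N-FI, as were 18.3%), together 3 of 10 against 29.4%. On the deposited values IGFBP3 was at least 25.2-fold higher in treated SK-N-AS, IGFBP5 at least 8.75-fold higher in treated SK-N-FI and IGFBP2 3.22-fold higher in treated SK-N-AS. After quantile normalization these were at least 58.7-fold, at least 2.97-fold and 9.19-fold. IGF2R was 1.56-fold higher in treated SK-N-FI on the deposited values (limma adjusted p = 0.031), but 2.02-fold higher in treated SK-N-AS after quantile normalization. The deposited call was lost without SK-N-FI treated array 1 or 2 or SK-N-AS treated array 28 or 30, with limma adjusted p from 0.062 to 0.11. IGF2 differed by -0.71 between the treated lines (limma adjusted p = 0.21), and this was called without either SK-N-FI control array, which entered through the shared estimate of the spread (limma adjusted p = 0.038).

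**Figure D3:**
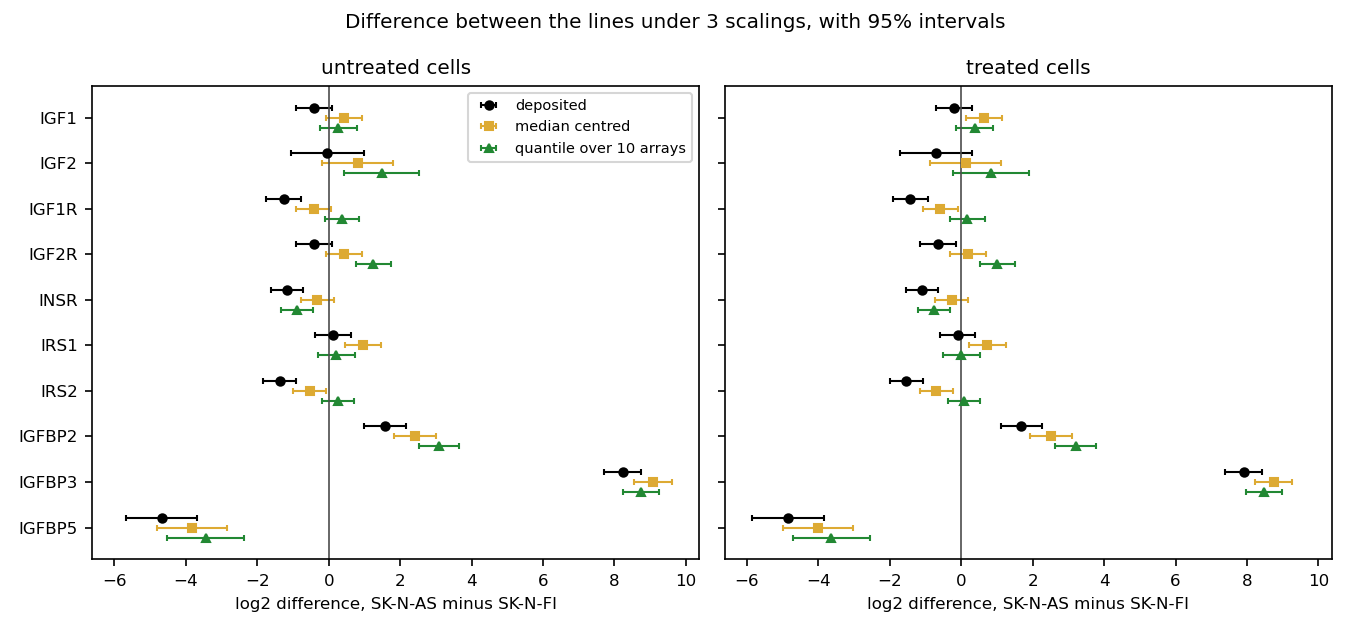
Log2 difference between the lines (SK-N-AS minus SK-N-FI) for each gene in untreated and treated cells, with limma 95% intervals, under the deposited, median centred and quantile scalings. IGFBP2 and IGFBP3 stay to the right of 0 and IGFBP5 to the left under all 3 scalings, and IGF1R and IRS2 move from the left to the right of 0.

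Some other genes whose proteins set IGF availability also differed between the lines in RNA signal. This list was chosen with earlier results of these data known, so its share of calls does not test the list. Of its 15 genes, 10 were called in 1 direction under each of the 3 scalings, against 30.3% of all probe sets. Of the 15, 7 had a higher call in untreated SK-N-AS, against 11.4% of all probe sets, and 3 in untreated SK-N-FI, against 18.9%. HTRA1, a secreted protease that cleaves IGFBP5, was at least 7.81-fold higher in untreated SK-N-AS (10.49 ± 0.11, SD, n = 3, against 3.90 ± 0.17, n = 2). STC2, which inhibits the IGFBP protease PAPPA, was at least 16.6-fold higher there, and IGFBP7, a low-affinity IGF binder, at least 3.37-fold. Those bounds are on the deposited values, and after quantile normalization they were 19.3-fold for HTRA1, 38.4-fold for STC2 and 8.79-fold for IGFBP7. IGFBPL1, a binding protein relative, was at least 10.5-fold higher in untreated SK-N-FI on the deposited values and at least 3.40-fold after quantile normalization. STC1, the paralogue of STC2, was 5.73-fold higher in untreated SK-N-FI on the deposited values and 1.97-fold after quantile normalization. The stanniocalcins thus lay in opposite directions, but STC1 was named after its values were seen. Unlike IGFBP3 and IGFBP5, STC1 was above background on all 4 SK-N-FI arrays and all 6 SK-N-AS arrays. PAPPA, PAPPA2, ESM1 and CCN2, also among the 10, were under background on all arrays, and IGFBP4 was above it on 5 of 6 SK-N-AS arrays and on no SK-N-FI array.

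**Figure D4:**
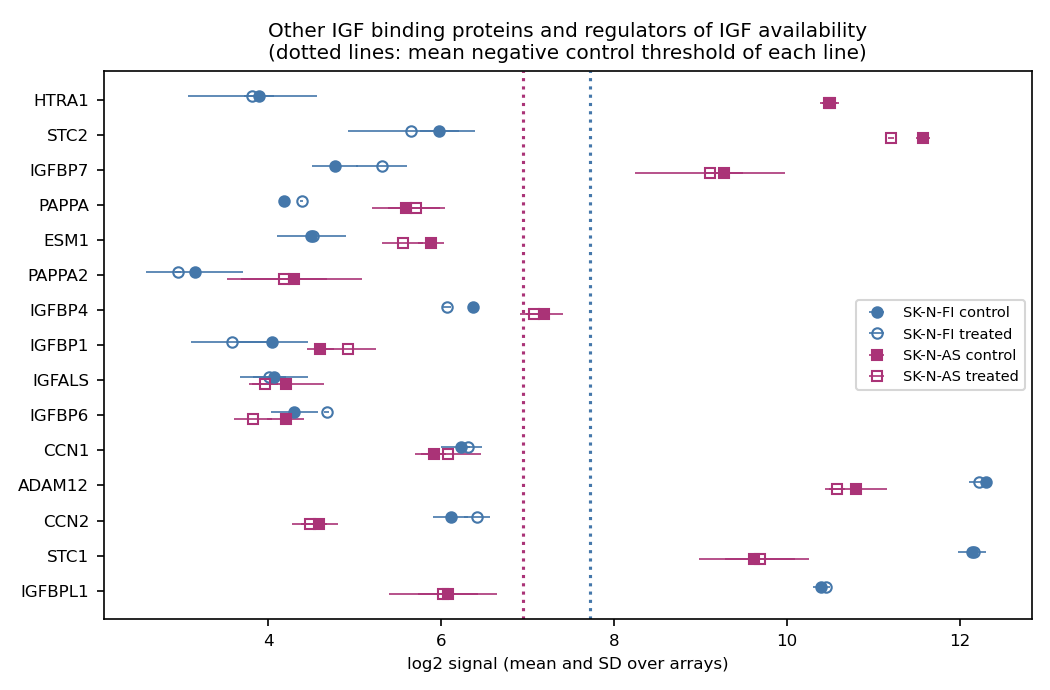
Mean log2 signal with SD of 15 other genes of IGF binding and availability in the 4 groups, ordered by the difference between the untreated lines, with the mean negative control threshold of each line as a dotted line (7.72 in SK-N-FI, 6.95 in SK-N-AS). HTRA1, STC2 and IGFBP7 are above the threshold in SK-N-AS and under it in SK-N-FI, and IGFBPL1 is the reverse.

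Downstream of the receptors, members of each list were called in both directions between the untreated lines. Among 22 adaptors and receptor regulators, calls under each of the 3 scalings put 2 higher in SK-N-AS and 5 in SK-N-FI. Together these were 7 of 22, against 30.3% of all probe sets. The 2 in SK-N-AS, GRB10 and CISH, were under background on all arrays. SOCS2, an inhibitor of growth hormone signalling, was 25.4-fold higher in SK-N-FI on the deposited values and 8.77-fold after quantile normalization. CBL, a ubiquitin ligase, DOK4, a docking protein, and SOS2, a RAS exchange factor, were also higher there, by 8.83-fold, 14.6-fold and at least 8.30-fold on the deposited values. After quantile normalization these were 2.92-fold, 5.51-fold and at least 2.70-fold, with CBL above background on 1 of 3 SK-N-AS control arrays on both scales. In the PI3K, AKT and mTOR list, such calls put 2 of 24 higher in SK-N-AS, against 11.4% of all probe sets, and 8 in SK-N-FI, against 18.9%. The mTOR inhibitors TSC1 (14.7-fold) and DEPTOR (at least 7.46-fold), the mTORC2 subunit RICTOR (at least 5.41-fold) and the AKT phosphatase PHLPP2 (at least 3.41-fold) were higher in SK-N-FI on the deposited values. After quantile normalization TSC1 was 5.30-fold higher, and the bounds were 2.45-fold for DEPTOR, 1.80-fold for RICTOR and 1.19-fold for PHLPP2. AKT1 was higher in SK-N-AS, with a log2 difference of 1.12 on the deposited values and 2.66 after quantile normalization.

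Of 23 FOXO factors and FOXO-responsive genes, 8 had a higher call in untreated SK-N-AS and 4 in SK-N-FI under each of the 3 scalings, against 11.4% and 18.9% of all probe sets. FOXO3 was 11.9-fold and CDKN1B, a cyclin-dependent kinase inhibitor, 4.53-fold higher in SK-N-FI on the deposited values, and BCL6, a transcriptional repressor, was at least 2.31-fold higher in SK-N-AS. After quantile normalization these were 3.88-fold, 1.57-fold and at least 6.07-fold. SESN1, a sestrin, was called higher in SK-N-FI, but was above background on 1 of 4 SK-N-FI arrays and on no SK-N-AS array. Of the 8 genes called higher in SK-N-AS, FOXO6, PIK3IP1, FBXO32 and TRIM63 were under background on all arrays. SESN2, another of the 8, was above background on 1 of 3 SK-N-AS control arrays. Of 12 other ligands, receptors and processing genes, 1 was called in each direction, together 2 of 12 against 30.3% of all probe sets: FURIN, a proprotein convertase, in SK-N-FI, above background on 1 of 4 arrays, and the antisense gene IGF2-AS in SK-N-AS, under background on all arrays. IGF2BP3, an RNA binding protein named for IGF2 mRNA, was 4.33-fold higher in SK-N-FI on the deposited values, but not called after quantile normalization (limma adjusted p = 0.28). IGF2BP1 was under background on all arrays.

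Of 11 transcription factors and related genes known to act on the axis, 3 had a higher call in untreated SK-N-AS and 2 in SK-N-FI under each of the 3 scalings, beside 11.4% and 18.9% over all probe sets. EGR1, an immediate early factor, read 11.27 ± 0.09 (SD, n = 2) in SK-N-FI controls and 6.18 ± 0.15 (n = 3) in SK-N-AS controls, where it was under background, and was at least 19.2-fold higher in SK-N-FI on the deposited values and at least 6.38-fold after quantile normalization. SP1, which binds GC boxes, was 6.16-fold higher in SK-N-FI on the deposited values and 2.66-fold after quantile normalization. CTCF, the insulator protein of the IGF2 locus, was 3.05-fold higher in SK-N-FI on the deposited values and not called after quantile normalization (limma adjusted p = 0.78). Of the 3 genes called higher in SK-N-AS, WT1 and HMGA2 were under background on all arrays. STAT5B, the other, was above background on 2 of 3 SK-N-AS control arrays and on no SK-N-FI array.

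None of these genes passed the test for treatment. Over the 107 distinct genes of the 6 lists, limma called 0 in either line, with 2 (SK-N-FI) and 3 (SK-N-AS) at an unadjusted p under 0.05, beside 2.85% and 2.6% of all probe sets. Their median difference was 0.01 and -0.03. In SK-N-FI these were FOXO4 (0.78, limma adjusted p = 1) and FBXO32 (-0.67, limma adjusted p = 1). In SK-N-AS the 3 were RXFP1 (0.69), PHLPP1 (0.53) and G6PC1 (-0.50), each with a limma adjusted p of 1.00. Of these 5 genes, PHLPP1 was above background on 3 of 4 SK-N-FI arrays and on no SK-N-AS array, and the others on no array. FOXO output genes such as BCL6 (0.01), CDKN1B (0.07) and TRIB1 (-0.45) did not pass the test in SK-N-AS either. The genes with the smallest p of their lists included IGFBP7 (0.54) and IGF2BP1 (-0.51) in SK-N-FI, and STC2 (-0.37, 95% interval -0.79 to 0.05) and GRB14 (-0.52) in SK-N-AS, and none passed. IGFBP6, under background on all arrays, differed by 0.37 in SK-N-FI and by -0.38 in SK-N-AS. It was not called in either line or for the difference of effects.

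The genes whose centred log2 values lay closest to those of a member over the 10 arrays, among 8587 named probe sets above background in at least 1 group, were found by Euclidean distance. The array medians differed between the lines, so the distances carry that difference too. For IGFBP3 the closest were THBS2, GDF15 and NIBAN1, at distances of 0.74, 0.85 and 1.03 log2 units. THBS2 averaged 3.58 in SK-N-FI controls and 11.69 in SK-N-AS controls, close to the step of IGFBP3. For IGFBP5 they were FAM222A, GARNL3 and CYB561, at 1.21, 1.24 and 1.25. For IGFBP2 they were EEF1D, TIMMDC1 and CMPK2, at 0.47, 0.52 and 0.53. SRSF1 was the closest gene to both IGF1R (0.31) and IRS2 (0.33), with FBXO45 and GSPT2 next for IGF1R and PAXX and PIP4K2B next for IRS2. For IGF2R the closest were MLLT11, TUSC3 and TMBIM6, at 0.39, 0.42 and 0.42. For IGF2 they were MTOR, DPYSL3 and ADPRM, at 1.16, 1.25 and 1.28, so the nearest genes of IGF2 and IGFBP5 lay farther away than those of the other members named here.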

How the data were processed

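Total RNA was extracted with Trizol and labelled by a whole-transcript sense target protocol (labels' protocols). The authors deposited 1 log2 signal per probe set and array. RMA and Transcriptome Analysis Console 4.0.1.36 are named in the submitters' processing notes, without role or order. Array medians differ between the lines, as after a separate normalization of each, which affects levels across lines. The genome build of the arrays is not given in the sources used here. Of 24351 probe sets, 2903 were controls and 21448 were tested. The platform annotation named 17709, all matched in RefSeq, and 3739 were unnamed here. Groups came from titles and labels. Limma 3.58.1 in R 4.3.3 (lmFit, eBayes, no covariate) compared arms within each line, and a fit of 10 arrays in 4 groups gave the line contrasts and the difference of effects. P-values were Benjamini-Hochberg adjusted over all 21448 probe sets (threshold 0.05). The fits were tested on simulated data. Members and gene lists were chosen with earlier results of these data known. All members were named. Of each list, up to 4 genes with the smallest p between untreated lines and up to 2 per treatment were to be named. RXFP2, NEDD4, SHC3 and PDPK1 fell under this rule by treatment and are not described above. STC1, AKT1, IGFBP4, PAPPA, PAPPA2, ESM1, CCN2, GRB10, CISH, FOXO6, SESN2, PIK3IP1, TRIM63 and HMGA2 were added after their values were seen. STAT5B fell under the rule by treatment only, and its line result was added in the same way. Fold bounds use the 95th percentile of negative controls. Alternatives covered scaling, a filter on dim probe sets, eBayes settings, array weights, a shared fit, a replicate block, another background percentile and left-out arrays.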

Additional observations from a re-analysis of the deposited data

How the results depend on the processing

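No treatment call and no difference of effects was made under any alternative run: limma called 0 probe sets under each scaling, the filter on dim probe sets, eBayes with trend and robust, array weights, the shared fit and the replicate block. In SK-N-FI the replicate block gave 0 calls, with an unadjusted p under 0.05 for 471 probe sets (611 without the block). The deviations of same-numbered arrays correlated at -0.17, and the numbers were not taken as pairing. With 2 arrays per arm that correlation is a single value, the same for each pair by construction. The crossed pairing, chosen after seeing the data, also gave 0 calls. With only probe sets above the negative controls, 8141 were called between the untreated lines and 7596 between the treated lines, from fewer tested (9658 and 9137). At the 99th percentile of the negative controls 0 members (SK-N-FI) and 2 (SK-N-AS) were above it on every array. Each member had 1 probe set, so the alternative with other probe sets could not be run.

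Scaling turned these line differences (SK-N-AS minus SK-N-FI, log2), and the cause was not tested. After quantile normalization the untreated differences were 0.27 (IGF1), 1.48 (IGF2), 0.37 (IGF1R), 1.25 (IGF2R) and 0.27 (IRS2), and the treated ones 0.37 (IGF1), 0.84 (IGF2), 0.17 (IGF1R), 1.01 (IGF2R), 0.0067 (IRS1) and 0.086 (IRS2). After median centring the untreated ones were 0.43 (IGF1), 0.81 (IGF2) and 0.44 (IGF2R), and the treated ones 0.63 (IGF1), 0.13 (IGF2), 0.19 (IGF2R) and 0.73 (IRS1). With array weights the untreated difference of IGF2 was 0.067. Median centring gave -0.0012 for IGFBP2 after treatment of SK-N-AS. IGFBP2, IGFBP3 and IGFBP5 kept direction and call between the lines under all alternatives and left-out arrays.

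Left-out arrays turned the sign of differences that were not called; in SK-N-FI this leaves 1 array in an arm, assumed to vary like the others. Treatment differences ranged in SK-N-FI from -0.67 to 1.45 (IGF2), -0.060 to 0.28 (IGF1R), -0.079 to 0.38 (IRS1), -0.13 to 0.19 (IRS2), -0.43 to 0.24 (IGFBP2), -0.14 to 0.51 (IGFBP3) and -0.72 to 0.55 (IGFBP5). In SK-N-AS they ranged from -0.15 to 0.043 (IGF1R), -0.23 to 0.010 (IGF2R), -0.15 to 0.012 (IRS1), -0.11 to 0.13 (IGFBP2) and -0.54 to 0.036 (IGFBP5). The differences of effects ranged from -1.73 to 0.39 (IGF2), -0.34 to 0.0085 (IGF1R), -0.030 to 0.13 (INSR), -0.45 to 0.0091 (IRS1), -0.24 to 0.44 (IGFBP2), -0.64 to 0.0053 (IGFBP3) and -0.80 to 0.47 (IGFBP5). Line differences ranged from -1.10 to 1.02 (IGF2, untreated) and -0.33 to 0.13 (IRS1, treated).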
